A study of Homo sapiens with 6 samples.

Results

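The genes described here encode the proteins of the cytosolic ribosome. They were chosen by name: protein-coding rows of the deposited expression table whose symbol is RPL or RPS followed by a number and optional letters, together with RPLP0, RPLP1, RPLP2 and RPSA. The rule found 85 of the 60623 rows. Of these 77 are core proteins, 31 of the small and 46 of the large subunit, and 8 are L-type paralogs, which are second genes for a core protein: RPL3L, RPL7L1, RPL10L, RPL22L1, RPL26L1, RPL36AL, RPL39L and RPS27L. No measured value entered the rule.

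RNA-seq was done on cells labelled Huh7, an established human hepatocellular carcinoma line, in 3 control libraries (genotype label WT, titles starting with NC) and 3 libraries with SRSF10 knocked down (titles starting with SH). SRSF10 is a splicing factor of the SR family, and the series title names a short hairpin as the means of knockdown. The labels list no treatment for either group, and give no time point and no culture, clone or passage. Whether the control cells carried a control hairpin is not stated, and if they did not, an effect of the hairpin itself and one of less SRSF10 cannot be told apart. No label ties the 3 libraries of a group to cultures of their own, and every p-value here is set against the spread among libraries, which may be technical.

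A ribosome holds each of its core proteins in equal number, apart from the acidic stalk proteins, and cells match their supply to that of ribosomal RNA. In vertebrates most core mRNAs begin with a C followed by a run of pyrimidines, the 5′ terminal oligopyrimidine (TOP) tract, through which mTOR and LARP1 set their translation and storage. Most core proteins are made from 1 active gene, with many silent processed copies elsewhere in the genome. The paralogs differ in where they are used: RPL10L and RPL39L are known from male germ cells, RPL3L from heart and skeletal muscle, RPS27L from the response to DNA damage, and RPL22L1 as the partner gene of RPL22, which represses it.

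The start of the mRNA holds the TOP tract, which most core genes carry and most of the paralogs do not, so these windows are shown first. Each runs from 10 bases before to 20 bases from the start base annotated by RefSeq on GRCh38.p14, 5′ to 3′ on the strand of the gene, and the run of C and T letters from the start base is in capitals where it opens with a C and at least 4 further C or T letters. The first 6 are genes that were lower in the knockdown libraries and have such a tract, with 5 of them on chromosome 3. The others set 4 core genes beside their paralogs, and end with the paralog RPL7L1.
RPL29 (chr3:51995876-51995905, minus strand): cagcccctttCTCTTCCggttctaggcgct
RPL14 (chr3:40457329-40457358, plus strand): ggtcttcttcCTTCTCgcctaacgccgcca
RPL35A (chr3:197950180-197950209, plus strand): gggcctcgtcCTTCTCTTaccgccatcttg
RPSA (chr3:39406710-39406739, plus strand): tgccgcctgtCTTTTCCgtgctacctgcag
RPL24 (chr3:101686699-101686728, minus strand): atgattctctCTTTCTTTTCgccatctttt
RPL35 (chr9:124861938-124861967, minus strand): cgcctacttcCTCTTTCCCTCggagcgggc
RPL22 (chr1:6199576-6199605, minus strand): cgctcacctcCCTTTCTaactccgctgccg
RPL22L1 (chr3:170870176-170870205, minus strand): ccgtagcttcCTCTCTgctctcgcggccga
RPS27 (chr1:153990752-153990781, plus strand): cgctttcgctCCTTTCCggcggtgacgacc
RPS27L (chr15:63157458-63157487, minus strand): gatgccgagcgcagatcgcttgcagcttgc
RPL26 (chr17:8383174-8383203, minus strand): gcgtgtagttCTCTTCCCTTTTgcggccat
RPL26L1 (chr5:172958719-172958748, plus strand): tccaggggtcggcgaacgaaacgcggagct
RPL36A (chrX:101391001-101391030, plus strand): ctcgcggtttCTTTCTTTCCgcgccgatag
RPL36AL (chr14:49620607-49620636, minus strand): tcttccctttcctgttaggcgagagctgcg
RPL7L1 (chr6:42879606-42879635, plus strand): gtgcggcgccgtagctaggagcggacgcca

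The table of starts held 68 of the 85 members. A tract, defined as a C and then 4 letters that are each C or T with the C on the start base of the gene's own strand, was found in 46 of 62 core genes (74.2%) and in 1 of 6 paralogs, RPL22L1. Among all 27305 genes listed there, 5.14% had one. RPL22L1 and RPL22 both carry the tract, with runs of 6 and 7 letters. RPS27L, RPL26L1 and RPL7L1 have none at the annotated start, and RPL36AL has a run of 3 letters there. The match depends on where the start was annotated, and draws on no read from these libraries.

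The coding sequences show how close 2 of the pairs are, which bears on whether short reads can be assigned to 1 gene of a pair. They are from GENCODE release 29 on GRCh38, without the stop codon, with the bases that differ in the alignment of the pair in capitals.
RPL39 (coding parts within chrX:119786687-119791576, minus strand): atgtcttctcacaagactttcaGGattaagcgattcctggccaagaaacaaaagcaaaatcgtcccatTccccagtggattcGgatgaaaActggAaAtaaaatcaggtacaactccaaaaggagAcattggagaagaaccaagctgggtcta
RPL39L (chr3:187121148-187121300, minus strand, in 1 exon): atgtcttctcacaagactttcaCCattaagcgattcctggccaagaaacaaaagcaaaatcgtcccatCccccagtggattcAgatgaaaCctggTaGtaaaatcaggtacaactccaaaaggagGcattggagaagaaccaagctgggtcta
RPS27 (coding parts within chr1:153990797-153992090, plus strand): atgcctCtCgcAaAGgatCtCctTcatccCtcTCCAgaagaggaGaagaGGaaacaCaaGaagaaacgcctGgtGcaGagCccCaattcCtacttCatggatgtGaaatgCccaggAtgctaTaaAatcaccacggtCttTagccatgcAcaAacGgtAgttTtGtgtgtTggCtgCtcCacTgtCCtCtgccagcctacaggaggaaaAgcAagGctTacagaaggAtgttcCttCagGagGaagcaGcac
RPS27L (coding parts within chr15:63154035-63157405, minus strand): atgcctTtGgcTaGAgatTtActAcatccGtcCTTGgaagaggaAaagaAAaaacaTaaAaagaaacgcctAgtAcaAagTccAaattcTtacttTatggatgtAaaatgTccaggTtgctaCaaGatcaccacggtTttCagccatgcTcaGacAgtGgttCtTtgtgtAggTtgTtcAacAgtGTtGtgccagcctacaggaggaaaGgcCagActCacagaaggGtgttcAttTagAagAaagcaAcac

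RPL39 and RPL39L are both 153 coding bases long and differ at 8 of them (94.8% identical), and their longest stretch without a difference is 44 bases. RPS27 and RPS27L have 252 coding bases each and differ at 56 (77.8% identical), with differences spread so that no identical stretch exceeds 20 bases. RPL22 has 384 and RPL22L1 366 coding bases, and the pair is 65.4% identical. Of these, RPL39 and RPL39L are the pair whose reads are hardest to separate, and the sources used here do not say how reads that fit both genes were counted.

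The expression values are FPKM, a count of fragments scaled to gene length and to library size. Depths estimated from the steps between low values were 12610000 to 14260000 fragments per library. SRSF10 had 18.6, 19.5 and 19.8 FPKM in the controls and 10.6, 10.8 and 10.6 FPKM in the knockdown libraries, 44.8% lower (exact two-sided permutation p = 0.1, the smallest that 3 against 3 libraries allow). Of 10 hepatocyte markers 2, FGB and HNF4A, had at least 1 FPKM in every library, while TTR and APOA2 were listed at 0 throughout, ALB was at 0.115 to 0.814 FPKM and AFP at 0.669 to 0.958 FPKM. Such low levels of defining hepatocyte genes go against what is known of the labelled line, and whether the cells or the counting gave them was not tested. The summed FPKM of 5 fibroblast markers was 4.11 to 5.21 in the controls and 9.38 to 10.5 in the knockdown libraries, nearly all of it LUM, and that of 4 endothelial markers was 5.43 to 6.13 and 9.46 to 10.8, most of it PECAM1 and KDR. Leukocyte, testis germ cell and muscle markers summed to at most 0.196, 0.0746 and 0.332 FPKM in any library, with the germ cell genes TNP1, PRM1, PRM2 and ACR and the muscle genes MYH6 and MYH7 listed at 0. The part of these shifts in the results below was not tested. In bulk RNA fewer cells of a type and less RNA per cell cannot be told apart.

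Together the 85 genes made up 2.86% to 3.24% of the FPKM that were not mitochondrial. The core genes lay between 1.16 FPKM for RPS10 and 299 FPKM for RPL8 (means over the 6 libraries), a 258-fold range around a median of 52.0 FPKM. The highest were RPL8, which sits near the peptidyl transferase centre, at 299 FPKM, the very short RPL41 at 229 FPKM, RPL7 at 222 FPKM and the stalk base RPLP0 at 218 FPKM. RPL8 was at 272 FPKM or more in every library and so above each of the other members in every library, whereas the ranges of RPL41, RPL7 and RPLP0 over the libraries overlapped. Among the lowest were RPS10 (1.16 FPKM), RPS29 (1.70), RPS28 (2.99) and RPL26 (4.65), each of them a gene mutated in Diamond-Blackfan anaemia, a failure of red cell production. Of the 77, 21 core genes were at 100 FPKM or more and 9 were under 10 FPKM.

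**Figure D1:**
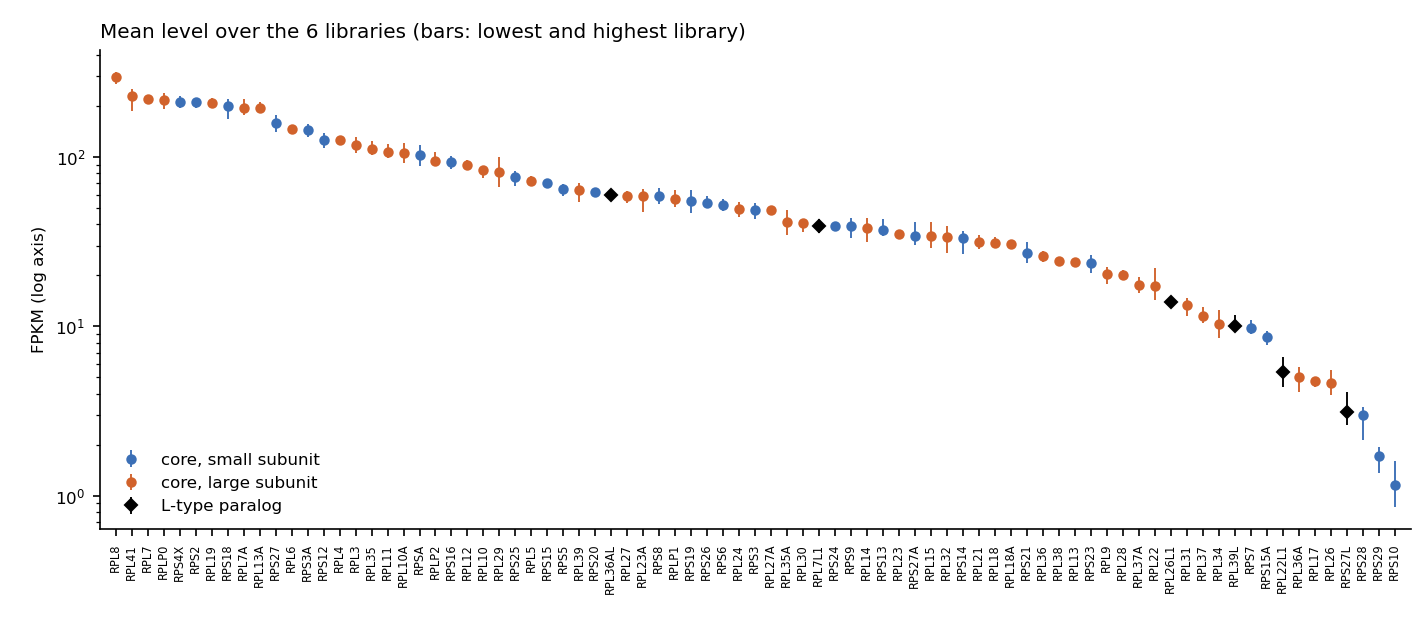
Mean FPKM (log axis) over the 6 libraries of 81 of the 83 ribosomal protein genes at 1 FPKM or more, in falling order. Bars run from the lowest to the highest library, and colours mark core small subunit genes, core large subunit genes and paralogs. RPL8 is highest at 299 FPKM and RPS10 lowest at 1.16 FPKM, and the paralogs lie between 3.13 FPKM (RPS27L) and 59.8 FPKM (RPL36AL).

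That spread in level is a property of the values as deposited, and 2 features of the annotation were set beside it. FPKM divide by the length of all exons of a gene, and across the 77 core genes mean FPKM fell with that length (Spearman's rho = -0.46, genes being no independent replicates). RPS29 has 9845 exon bases in GENCODE 29, against 2159 for RPL8. Exons of 28 core genes share bases with another coding gene, RPS10 by 929 bases with the readthrough gene RPS10-NUDT3, and RPL26 by 360 bases with an unnamed coding gene of the same strand. These 28 had a median of 33.9 FPKM, against 52.0 FPKM for all core genes, and among them RPS18 was at 200 FPKM. The relation of sharing to level was not tested. Reads in shared exons may be left out or split, so the order of levels between genes describes this table and not the amount of each mRNA. Mean FPKM had little relation to the number of pseudogene rows of a gene (rho = -0.03) or to their summed FPKM (rho = 0.15), though 1143 such rows are listed and their sum was 913 to 1054 FPKM per library. Comparisons of 1 gene between libraries, below, share its length and overlaps.

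Of the paralogs, RPL10L was listed at 0 in all 6 libraries and RPL3L had 0 to 0.0504 FPKM, at most 2 fragments in a library. Markers of germ cells and muscle, their usual sites, were also near 0. The other 6 were measured throughout: RPL36AL at 59.8 FPKM, RPL7L1 at 39.3, RPL26L1 at 13.9, RPL39L at 10.1, RPL22L1 at 5.40 and RPS27L at 3.13 FPKM. RPL39L, like RPL10L known from male germ cells, was thus present though the germ cell markers were near 0. The relation of the paralogs to these markers was not tested. RPL36AL and RPL26L1 exceeded their core counterparts in every library, while RPL7L1, RPL39L, RPL22L1 and RPS27L were below theirs in every library.

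Within each group the core genes moved together from library to library, which sets the precision of what follows. In log2(FPKM + 1), the median core gene was 0.08 above its group mean in control 2 and 0.08 below it in control 3, and in knockdown 1 it was 0.07 below. Control 2 was the highest of the 3 controls for 57 of 77 core genes, control 3 the lowest for 58, and knockdown 1 the lowest of the 3 knockdown libraries for 66. In knockdown 2 and 3 the median core gene was 0.05 and 0.03 above its group mean, and in control 1 it was 0.01 above. Over all tested genes the same medians were within 0.01 of 0 in every library. The share of mitochondrial FPKM, 29.4% in control 3 and 29.7% in knockdown 1 against 27.5% to 29.2% in the other 4 libraries, was highest in these 2 libraries, and its part in their low ribosomal protein values was not tested. The counts of genes called below are therefore also given without control 3 and knockdown 1, for the members, their subunits, chromosome 3, the tract and the gene lists that had calls and are counted.

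**Figure D2:**
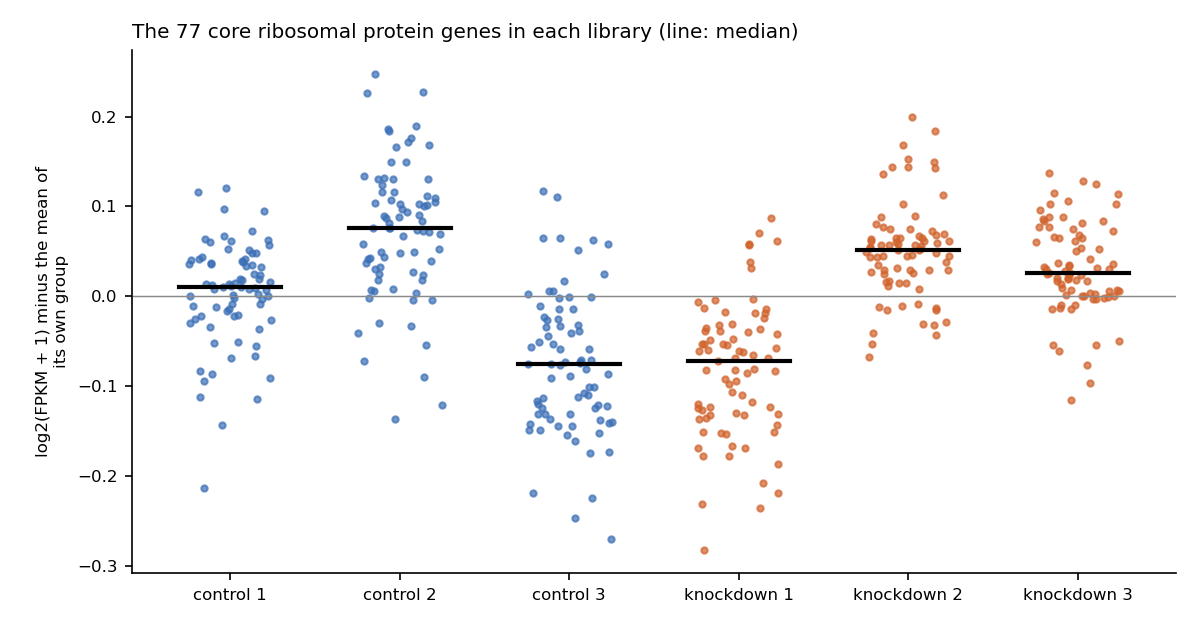
Each point is 1 of the 77 core genes, placed by library, and the vertical axis is its log2(FPKM + 1) minus the mean of its own group; black lines are medians. Most points of control 3 and knockdown 1 lie below 0 (medians -0.08 and -0.07), and most of control 2 above it (median 0.08).

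Summed over all 85 genes, the controls had 6106, 6338 and 5781 FPKM and the knockdown libraries 5493, 6066 and 5951 FPKM. The means, 6075 ± 279.7 and 5837 ± 303 FPKM (SD, n = 3), were 3.92% apart, and the groups overlapped (exact two-sided permutation p = 0.4). The core small subunit genes summed to 2289 ± 96.6 and 2247 ± 132 FPKM (exact p = 0.7), and the core large subunit genes to 3653 ± 183 and 3459 ± 169 FPKM (exact p = 0.3). The pseudogene rows summed to 1020.4 ± 40.5 and 950.0 ± 34.0 FPKM (exact p = 0.2). A change of the family as a whole was thus not larger than the spread between libraries.

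Gene by gene, the question was which ribosomal protein mRNAs differed when SRSF10 was knocked down. All genes with at least 1 FPKM in at least 3 libraries, 12191 in number, were tested with limma on log2(FPKM + 1), and p-values were adjusted by Benjamini and Hochberg over all of them; fold changes on this scale understate the change of genes with low values. This filter kept 83 members, the 77 core genes and 6 paralogs. At an adjusted p under 0.05, 0 members were higher and 11 lower, where 12.6% of all tested genes were higher and 12.5% lower. The 11 are 13.3% of the members tested, a share near that of all genes. At an unadjusted p under 0.05 there were 2 higher members, the paralogs RPS27L and RPL36AL, and 16 lower. Of all 12191 tested genes, 2214 were higher and 2349 lower at that threshold. The members' median difference was -0.05, against -0.01 for all tested genes. Of the members 24 were above and 59 below 0, and of all tested genes 5781 and 6410. The members' median varied with the library left out. It was -0.01 without knockdown 1, where all genes also stood at -0.01, and -0.10 without control 3. It was -0.04 without control 1, -0.02 without control 2, -0.08 without knockdown 2 and -0.06 without knockdown 3. Without control 3 and knockdown 1 together it was -0.04, against -0.02 for all genes. All knockdown libraries were below all controls for 19 members (22.0% of all tested genes) and above them for 3 (20.6% of all tested genes). Leaving out control 3 and knockdown 1 gave 0 higher and 8 lower, all 8 of them among the 11, where 7.00% of all tested genes were higher and 6.96% lower.

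The lower genes were mostly of the large subunit and mostly on chromosome 3. Of the 31 core small subunit genes 1 was lower, RPSA, and of the 46 core large subunit genes 9 were: RPL14, RPL15, RPL22, RPL24, RPL29, RPL32, RPL35, RPL35A and RPL36A. The remaining one is the paralog RPL7L1. Among core genes off chromosome 3, 0 of 30 small and 3 of 40 large subunit genes were lower. Of all tested genes 12.5% were lower, and 10.5% of those off chromosome 3. Without control 3 and knockdown 1 the counts were 1 of 31 small and 7 of 46 large subunit genes, and off chromosome 3 they were 0 of 30 and 2 of 40. In that setting 6.96% of all tested genes were lower, and 5.61% of those off chromosome 3. The difference between the subunits was not tested.

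**Figure D3:**
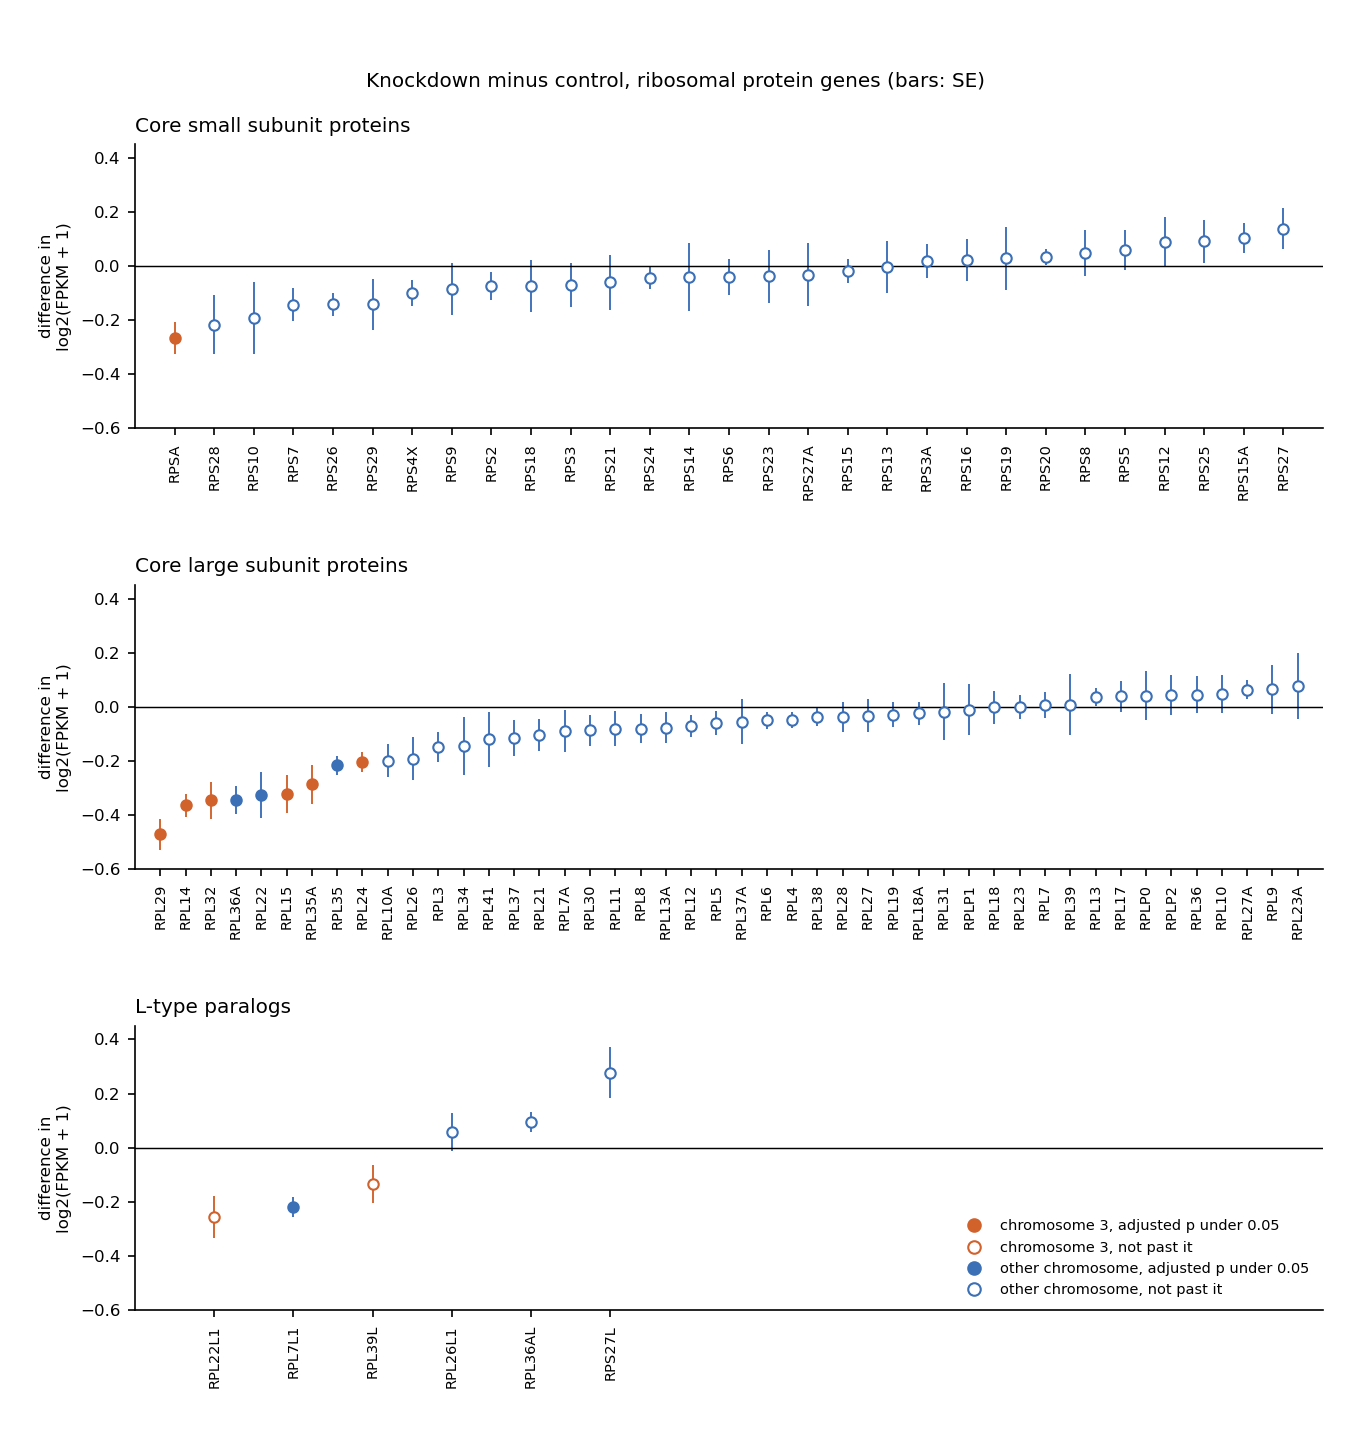
Difference in log2(FPKM + 1), knockdown minus control, with its standard error, for 81 of the 83 tested genes in 3 panels (core small subunit, core large subunit, paralogs), each in rising order. Orange marks chromosome 3 and filled symbols an adjusted p under 0.05. All 7 core genes on chromosome 3 are filled, and the differences run from -0.47 (RPL29) to 0.28 (RPS27L).

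The core genes on chromosome 3 fell together. The chromosome holds 9 members: RPL14, RPL15, RPL29, RPL32 and RPSA on the short arm, and RPL24, RPL35A and the paralogs RPL22L1 and RPL39L on the long arm. All 7 core genes were lower, and the 2 paralogs had negative differences that did not pass the threshold. The members' median difference was -0.29, and their summed FPKM was 451, 460 and 415 in the controls and 336, 357 and 364 in the knockdown libraries, 20.3% lower with no overlap (exact two-sided permutation p = 0.1). This went with the chromosome as a whole: of all 718 tested genes on chromosome 3, 43.9% were lower, with a median of -0.19. On the short arm 56.7% of 326 tested genes were lower (median -0.27; the 5 members' median was -0.34), and on the long arm 33.2% of 392 (median -0.13; the 4 members' median was -0.23). The differences of RPSA and RPL39L were equal to the median of their arm to 2 decimals, and RPL29 lay farthest below it, by 0.20. Off chromosome 3 the members had 4 lower of 74 (median -0.04), where 10.5% of 11473 tested genes were lower. Without control 3 and knockdown 1, 6 of the 7 core genes on the chromosome were lower, where 28.4% of its 682 tested genes were, and 2 of 74 members off it, where 5.61% of genes were. A difference between the cultures in the copy number of chromosome 3 and an effect of the knockdown cannot be told apart in these values.

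RPL29, a small basic protein of the large subunit also known to bind heparin, fell most. It had 96.2, 101 and 89.6 FPKM in the controls and 66.3, 66.6 and 73.0 FPKM in the knockdown libraries. Every knockdown library was below every control, and the means of 95.5 ± 5.52 and 68.7 ± 3.76 FPKM were 28.1% apart (log2 difference -0.47, SE 0.06, adjusted p = 0.0021). The gene lies at chr3:51993522-51995942 on the minus strand.

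RPL14, another large subunit protein, at chr3:40457292-40468587, had 43.0, 43.8 and 41.9 FPKM in the controls and 31.5, 34.7 and 33.2 FPKM in the knockdown libraries. The groups were well apart, and the value was 22.7% lower (log2 difference -0.36, SE 0.04, adjusted p = 0.0020). RPL32, at chr3:12834485-12841588, had 39.4, 39.1 and 35.6 FPKM in the controls and 27.1, 29.9 and 32.2 FPKM in the knockdown libraries, 21.7% lower (adjusted p = 0.013). Its exons hold the snoRNA SNORA7A and share 320 bases with CAND2 of the opposite strand. Both genes passed under every alternative run.

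RPL15, needed for assembly of the large subunit and mutated in Diamond-Blackfan anaemia, lies at chr3:23916545-23924374. Its values were 38.1, 41.5 and 34.2 FPKM in the controls and 28.8, 30.9 and 30.4 FPKM in the knockdown libraries, 20.8% lower (adjusted p = 0.017). RPSA, the small subunit protein also known as the laminin receptor and mutated in congenital asplenia, lies at chr3:39406689-39412542. It had 116, 118 and 104 FPKM in the controls and 88.9, 96.3 and 94.8 FPKM in the knockdown libraries, 17.1% lower (adjusted p = 0.017). In both genes control 3 was the lowest control and knockdown 1 the lowest knockdown library, as for most core genes. RPSA has 74 pseudogene rows with a summed mean of 94.5 FPKM, close to its own level, so reads of the gene and its copies may be mixed. The same limit holds for RPL24 (pseudogene rows 47.9 FPKM, gene 49.0), RPL22 (19.5 and 17.2) and RPL14 (25.8 and 38.0). For RPL29 (1.93 and 82.1) and RPL35 (1.28 and 112) the pseudogene sums were small. Without control 1 RPL15 reached an adjusted p of 0.052 and RPSA of 0.055, and without knockdown 1 RPL15 reached 0.058 and RPSA 0.055. RPL15 also missed the threshold without knockdown 3 (adjusted p = 0.0503).

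On the long arm, RPL24 forms a bridge to the small subunit. It lies at chr3:101681091-101686782 and had 54.1, 51.0 and 52.5 FPKM in the controls and 44.3, 46.5 and 45.8 FPKM in the knockdown libraries, 13.4% lower with a narrow spread (adjusted p = 0.0086). RPL35A, a further Diamond-Blackfan anaemia gene, at chr3:197949980-197956610, had 47.2, 48.6 and 41.7 FPKM in the controls and 34.6, 38.1 and 39.4 FPKM in the knockdown libraries, 18.4% lower (adjusted p = 0.028). With no filter on low values RPL15, RPSA, RPL22 and RPL35A all missed the threshold, with adjusted p-values of 0.059 to 0.099. The call for RPL35A was also lost without control 1 (adjusted p = 0.083), control 2 (0.075), knockdown 1 (0.078) or knockdown 2 (0.065). RPL24 missed the threshold when control 3 and knockdown 1 were left out together (adjusted p = 0.059).

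**Figure D4:**
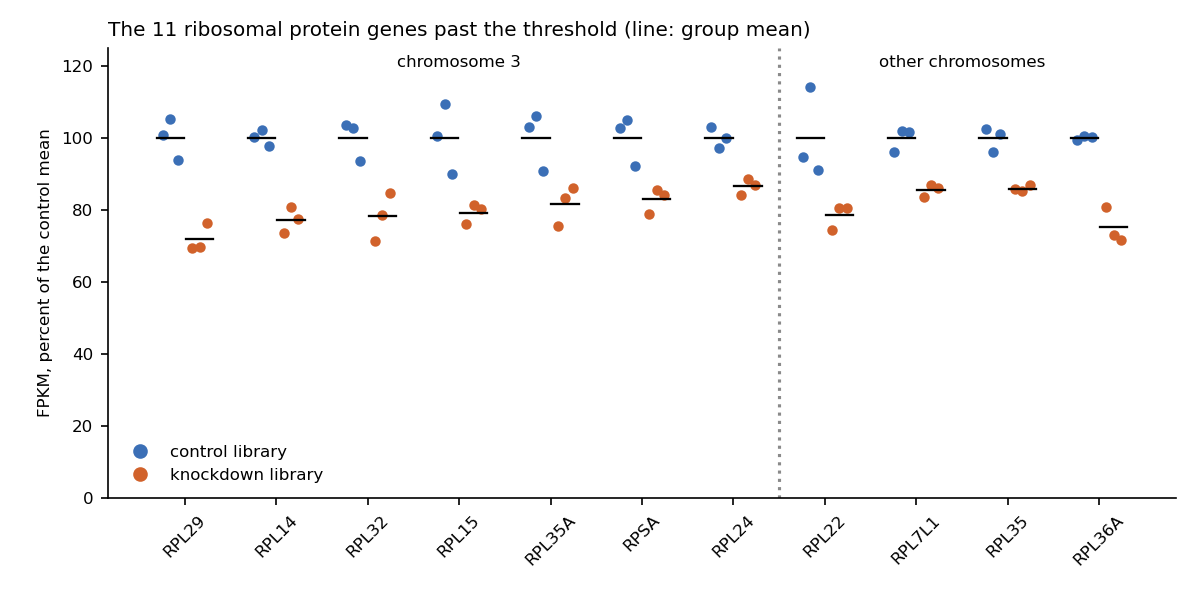
FPKM of each library as a percent of the control mean for the 11 genes with an adjusted p under 0.05; points are libraries, short lines group means, and the dotted line divides chromosome 3 from other chromosomes. In all 11 genes every knockdown library lies below every control, with knockdown means 28.1% lower for RPL29 and 13.4% lower for RPL24.

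Off chromosome 3, RPL36A, RPL35, RPL22 and RPL7L1 were lower. RPL36A, a protein near the exit site for spent tRNA, lies at chrX:101390824-101396154 and had the tightest controls, 5.67, 5.73 and 5.72 FPKM. The knockdown libraries had 4.61, 4.17 and 4.09 FPKM, 24.8% lower (log2 difference -0.34, SE 0.05, adjusted p = 0.0052). These values rest on 205 to 320 estimated fragments per library, and 333 exon bases are shared with the readthrough gene RPL36A-HNRNPH2.

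RPL35 sits by the mouth of the tunnel through which the new protein leaves. At chr9:124857880-124861981, it had 124, 116 and 122 FPKM in the controls and 103, 103 and 105 FPKM in the knockdown libraries, 14.0% lower (log2 difference -0.22, SE 0.03, adjusted p = 0.0057). All knockdown values lay within 3 FPKM of each other, and the call held under every alternative run. RPL22, whose loss is known to hold back T cell development, lies at chr1:6185020-6209389. It had 18.3, 22.0 and 17.5 FPKM in the controls and 14.3, 15.5 and 15.5 FPKM in the knockdown libraries, 21.5% lower (adjusted p = 0.031). Control 2 stood above the other controls, and the call was lost without control 1 (adjusted p = 0.054), knockdown 1 (0.095), knockdown 2 (0.070) or knockdown 3 (0.072), and without control 3 and knockdown 1 together (0.065).

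RPL36A, above, passed the threshold at low values, but the low core genes RPS28, RPS10, RPS29 and RPL26, also with negative differences, did not. RPS28 had 3.31, 3.27 and 3.24 against 2.12, 3.22 and 2.77 FPKM (adjusted p = 0.20), where knockdown 1 was farthest below the controls. RPS10 had 1.39, 1.61 and 0.930 against 1.09, 1.08 and 0.850 FPKM (adjusted p = 0.34), from 25 to 48 estimated fragments per library. RPS29 had 1.91, 1.93 and 1.66 against 1.35, 1.54 and 1.82 FPKM (adjusted p = 0.32). RPL26, a large subunit protein, had 4.44, 5.15 and 5.49 against 4.53, 4.36 and 3.92 FPKM (adjusted p = 0.14), the groups overlapping through control 1.

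At the other end, the core genes with the largest positive differences were RPS27 and RPS15A. RPS27 had 154, 161 and 141 FPKM in the controls and 151, 176 and 175 FPKM in the knockdown libraries (log2 difference 0.14, adjusted p = 0.23), and the groups overlapped through knockdown 1. RPS15A had 7.70, 8.59 and 8.63 against 9.40, 8.70 and 8.90 FPKM (log2 difference 0.10, adjusted p = 0.22), the one core gene with every knockdown library above every control. The most abundant core genes showed no difference beyond the spread: RPL8 (306.9 ± 13.6 and 290.4 ± 16.8 FPKM), RPL41 (238 ± 17.9 and 219.8 ± 28.5), RPL7 (221 ± 11.9 and 222 ± 8.36), and RPLP0 (214 ± 19.6 and 221 ± 22.1) had adjusted p-values of 0.33 to 0.93. RPL3, the core counterpart of RPL3L, had 123, 132 and 118 against 106, 116 and 114 FPKM (adjusted p = 0.095), with no overlap between the groups. RPL10, the counterpart of RPL10L, had 82.8, 88.4 and 75.7 against 78.6, 88.5 and 87.9 FPKM (adjusted p = 0.67).

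Among the paralogs 1 of 6 tested passed the threshold, RPL7L1, a nucleolar relative of RPL7 known from assembly of the large subunit. It lies at chr6:42879618-42889925 and had 40.7, 43.2 and 43.0 FPKM in the controls and 35.4, 36.8 and 36.4 FPKM in the knockdown libraries, 14.4% lower (log2 difference -0.22, SE 0.04, adjusted p = 0.0069). Without control 3 and knockdown 1 together its adjusted p was 0.057.

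RPS27L, at chr15:63125872-63158021, had 2.61, 2.97 and 2.60 FPKM in the controls and 3.03, 4.08 and 3.49 FPKM in the knockdown libraries. Each knockdown library was above each control, by 29.6% on average, and the difference missed the threshold (log2 difference 0.28, SE 0.10, adjusted p = 0.075). Without knockdown 1 its adjusted p was 0.044. RPL36AL, at chr14:49618519-49620685, had 55.8, 57.1 and 60.5 FPKM in the controls and 61.6, 62.0 and 61.8 FPKM in the knockdown libraries (log2 difference 0.10, adjusted p = 0.11). The knockdown values were close together and just above the highest control, and without control 3 the adjusted p was 0.036.

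RPL22L1, at chr3:170864875-170870483, had 5.70, 6.56 and 5.65 FPKM in the controls and 4.91, 4.37 and 5.23 FPKM in the knockdown libraries, with no overlap (log2 difference -0.26, SE 0.08, adjusted p = 0.052). It passed under 4 alternatives: a minimum of 5 FPKM, both changes of scaling and quantile normalization. RPL39L, at chr3:187120948-187180908, had 11.7, 10.4 and 9.65 against 9.19, 9.74 and 9.70 FPKM (adjusted p = 0.21), and the groups overlapped. RPL26L1, at chr5:172958729-172969771, had 13.0, 15.0 and 12.9 against 14.4, 13.3 and 15.0 FPKM (adjusted p = 0.59).

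The balance of paralog and core gene was compared as the ratio of their FPKM within a library, which no scaling between libraries can change. There were 6 pairs, and the exact two-sided permutation test on the log2 ratio could reach no p below 0.1 per pair, so p-values stay at or above it after adjustment over the 6. RPL22L1 to RPL22 was 0.312, 0.298 and 0.322 in the controls and 0.343, 0.282 and 0.337 in the knockdown libraries (exact p = 0.7). Both genes had lower means in the knockdown libraries, and their ratio, 0.311 ± 0.0122 and 0.320 ± 0.0336, did not differ beyond the spread. RPL39L to RPL39 was 0.181, 0.149 and 0.169 against 0.169, 0.138 and 0.142 (exact p = 0.3), with overlap.

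The ratio of RPS27L to RPS27 was 0.0170, 0.0184 and 0.0185 in the controls and 0.0201, 0.0231 and 0.0199 in the knockdown libraries, 1.17-fold higher with no overlap (exact p = 0.1, adjusted 0.15). The level of this ratio depends on length, since RPS27L has 9127 exon bases and RPS27 has 1035. RPL36AL to RPL36A was 9.84, 9.96 and 10.6 against 13.4, 14.9 and 15.1, the largest shift of the 6 at 1.43-fold, again with no overlap (exact p = 0.1, adjusted 0.15). Here RPL36A was lower while RPL36AL was at or slightly above its control values. How well reads of this pair, or of the RPL36A pseudogenes, can be told apart was not examined. RPL26L1 to RPL26 was 2.94, 2.91 and 2.36 against 3.18, 3.05 and 3.83 (1.23-fold, exact p = 0.1, adjusted 0.15), and neither gene passed the threshold by itself. RPL7L1 to RPL7 was 0.186, 0.185 and 0.205 against 0.166, 0.161 and 0.163, a ratio of 0.85 between the groups (exact p = 0.1, adjusted 0.15). In the pairs with RPL36A, RPS27 and RPL26 the paralog's share was thus higher in each knockdown library than in each control, and in the pair with RPL7 it was lower. Such separation is common in single genes: all knockdown libraries were below all controls for 22.0% of tested genes and above them for 20.6%. The share among ratios of other gene pairs was not worked out, so these separations are only described.

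**Figure D5:**
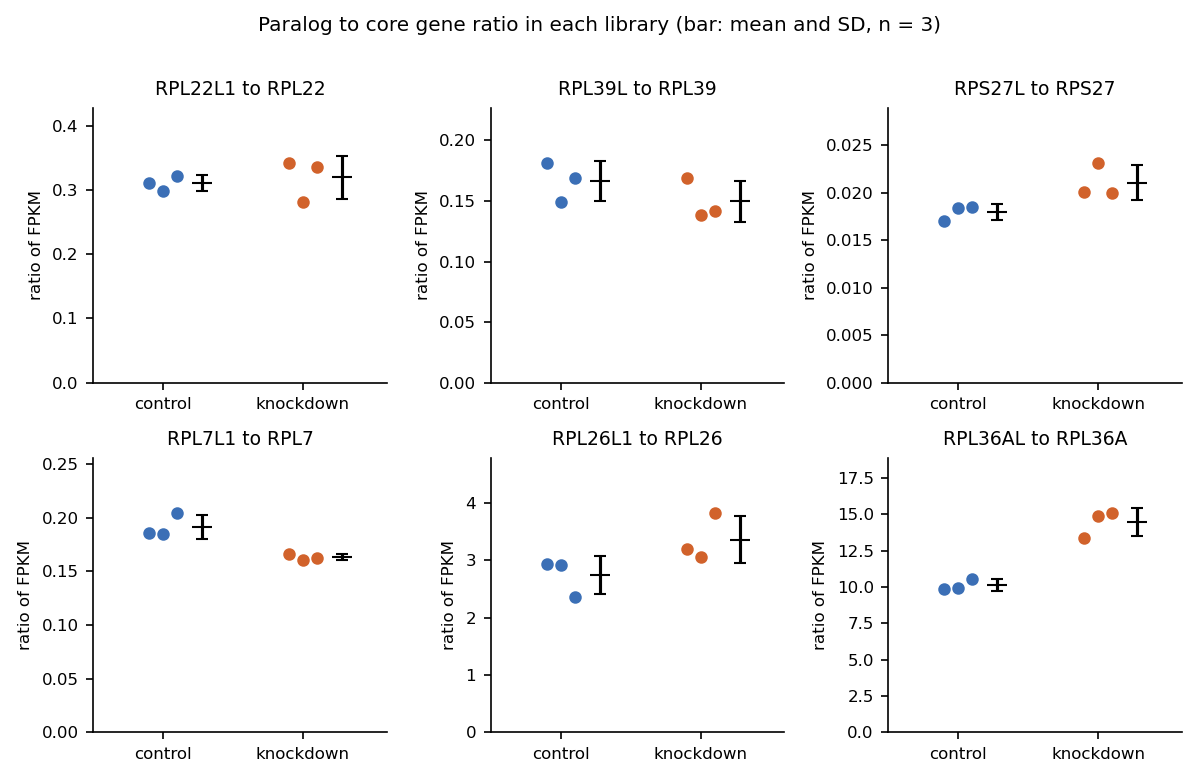
Ratio of the paralog's FPKM to that of its core gene in each control and knockdown library (points), with mean and SD (n = 3); every axis starts at 0. The groups are apart for RPS27L, RPL7L1, RPL26L1 and RPL36AL and overlap for RPL22L1 and RPL39L; the mean for RPL36AL is 10.1 in the controls and 14.5 in the knockdown libraries.

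The tract at the start was set beside the differences. Among core genes with a tract at an annotated start 8 of 46 were lower, with a median difference of -0.04, and among those whose starts lacked it 2 of 16, RPL15 and RPL32, with a median of -0.12, where 12.5% of all tested genes were lower. Of the lower genes, RPL14, RPL24, RPL29, RPL35A and RPSA with a tract and RPL15 and RPL32 without it lie on chromosome 3. On that chromosome 43.9% of all tested genes were lower. Without control 3 and knockdown 1 the counts were 6 of 46 and 2 of 16, where 6.96% of all tested genes were lower. The difference between these groups was not tested.

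Genes around the ribosomal proteins were read from lists named for their roles. Among components of the ribosome that the naming rule leaves out, FAU, which yields RPS30, had 41.6 ± 0.867 and 43.2 ± 1.81 FPKM, and RACK1, a signalling scaffold on the small subunit, had 61.2 ± 2.36 and 58.6 ± 2.47 FPKM, and neither passed the threshold. Among 18 tested translation genes known for a TOP tract 1 was higher and 3 were lower, beside 12.6% higher and 12.5% lower of all tested genes, and the median was -0.03. When control 3 and knockdown 1 were left out, TPT1 was higher and BTF3 lower, and HNRNPA1 and NPM1 did not pass. BTF3, a subunit of the nascent polypeptide-associated complex, fell by far the most, from 88.4, 87.9 and 83.8 FPKM to 51.3, 53.9 and 54.5 FPKM, 38.6% lower (adjusted p = 0.00022). HNRNPA1, a splicing repressor, was 11.1% lower (adjusted p = 0.015) and the nucleolar protein NPM1 9.38% lower (adjusted p = 0.021). TPT1, one of the classical TOP mRNAs, was higher, with 14.4, 14.3 and 14.8 against 17.0, 17.1 and 16.9 FPKM (adjusted p = 0.0049). The elongation factor gene EEF1G, used by every cell, was listed at 0 in every library, so a listed 0 can be a failed estimate.

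Of 12 chaperones and assembly partners of ribosomal proteins 0 were higher and 3 lower, with a median of -0.13, against 12.5% lower and a median of -0.01 for all tested genes. With control 3 and knockdown 1 left out, only BCCIP of the 12 passed. BCCIP, the partner of RPL23, fell from 17.8 ± 0.986 to 14.7 ± 0.166 FPKM (adjusted p = 0.0085). NMD3, the export adaptor of the large subunit, whose gene is on chromosome 3, fell from 29.9 ± 1.79 to 25.0 ± 0.659 FPKM (adjusted p = 0.013), and HEATR3, which imports RPL5, from 8.39 ± 0.387 to 6.98 ± 0.452 FPKM (adjusted p = 0.027). PDCD2, a chaperone of RPS2, had 5.56 ± 0.216 and 4.95 ± 0.145 FPKM (adjusted p = 0.075). None of 5 enzymes that modify ribosomal proteins passed in limma, though 4 had an unadjusted p under 0.05, all with lower means: PRMT3, OGFOD1, RIOX1 and METTL18, with adjusted p-values of 0.060 to 0.093. Of all 12191 tested genes 2349 were lower at that unadjusted threshold.

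Of 9 genes of the mTOR and LARP1 axis, which acts on TOP mRNAs, 1 was higher and 1 lower, shares like those of all tested genes (12.6% and 12.5%). MTOR kept its call without control 3 and knockdown 1, and EIF4EBP2 did not. The kinase MTOR had 16.1, 16.2 and 14.8 FPKM in the controls and 11.3, 11.7 and 11.3 FPKM in the knockdown libraries, 27.4% lower (log2 difference -0.43, adjusted p = 0.0014). EIF4EBP2, a translation repressor that it phosphorylates, rose from 10.6 ± 0.488 to 12.4 ± 0.161 FPKM (adjusted p = 0.014). EIF4EBP1 had 27.1 ± 4.16 and 33.7 ± 2.33 FPKM (adjusted p = 0.068), RPS6KB1, a kinase of RPS6, 8.56 ± 0.471 and 7.61 ± 0.00424 (adjusted p = 0.063), and LARP1 48.9 ± 2.16 and 46.5 ± 0.800 (adjusted p = 0.25).

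Genes of p53 and known readouts of ribosomal stress were read last. Of 8 tested 1 was higher and 0 lower, beside 12.6% higher and 12.5% lower of all tested genes. MDM2, a ubiquitin ligase that free RPL5 and RPL11 bind, rose from 3.36, 3.37 and 4.12 FPKM to 5.93, 5.48 and 5.32 FPKM (log2 difference 0.51, adjusted p = 0.0048). The cell cycle inhibitor CDKN1A had 16.8, 17.7 and 9.83 against 7.12, 11.0 and 8.01 FPKM (adjusted p = 0.077), and the stress cytokine GDF15 7.43, 8.67 and 11.7 against 15.6, 10.9 and 14.5 FPKM (adjusted p = 0.072). In both control 3 stood nearest to the knockdown libraries. Leaving out control 3 and knockdown 1 brought CDKN1A past the threshold as lower, and MDM2 kept its call. In that setting 7 genes of the list were tested, and 7.00% of all tested genes were higher and 6.96% lower.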

How the data were processed

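The authors deposited FPKM per gene and library, in a table of the series whose 60623 values per sample were identical to those of the 6 sample files. FastQC 0.11.9, Trim Galore 0.6.5-1 and GRCh38 are named per the submitters' processing notes; aligner, counter, gene lengths, strand setting and depth are not stated in those notes or the labels. FPKM are shares of a total and not counts, so limma 3.58.1 (R 4.3.3; trend, group as the only term) was run on log2(FPKM + 1), with a pseudocount of 1, for genes with at least 1 FPKM in at least 3 libraries. Errors are SD over 3 libraries. Depth was estimated from the steps between low values: 85.5% to 86.4% of values up to 6.5 fragments were within 0.05 of a whole number. It serves only to describe precision, and no count test was run. Annotation was GENCODE 29, in which 85 of 85 members were found by identifier; 68 matched the RefSeq start table by symbol. Chromosome arms were divided at an approximate centromere position.

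Named genes are SRSF10, every paralog and its core gene, every member past the threshold or on chromosome 3, the 5 highest and 5 lowest core genes, the 3 largest differences each way and, per list, up to 4 genes with the smallest adjusted p. Further list genes (FAU, RACK1, LARP1, PDCD2 and EEF1G among them) and markers are named from the lists themselves. A few genes that this rule names are not reported here. The members and lists were chosen with earlier results of these data known. The steps were tested on simulated data. Python 3.11.15 with NumPy 2.4.6, SciPy 1.17.1, Biopython 1.88 and matplotlib 3.10.9 was used elsewhere.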

Additional observations from a re-analysis of the deposited data

How the results depend on the processing

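Alternatives were no filter, a minimum of 5 FPKM, a pseudocount of 0.1, no trend, quantile normalization, scaling by median of ratios or without mitochondrial genes, a term for the replicate number, each library left out and, chosen after seeing the data, leaving out control 3 and knockdown 1 together. Without the filter 7 members were lower, against 11, and 1013 of all genes lower, against 1525; more genes were tested. Without the members on chromosome 3 the count is 4. Leaving out 1 library gave 0 to 1 higher and 7 to 14 lower members, and 894 to 1352 higher and 964 to 1327 lower genes in all; leaving out both gave 811 higher and 806 lower genes, from fewer samples. The 1 higher member was RPL36AL without control 3 and RPS27L without knockdown 1. Over 15 alternatives the 12 genes called in the main setting, SRSF10 included, kept their sign in all 180 combinations and lost the call in 21; RPL14, RPL29, RPL32, RPL35, RPL36A and SRSF10 lost it in none. Of the 72 members not called, 9 gained a call in at least 1 alternative, in 16 of 1073 combinations and with an unchanged sign, and 62 combinations had the opposite sign without a call. Among them RPL10A, lower in 4 alternatives, and RPS26, lower in 2, were picked out after their values were seen. No scaling moved the median of all genes by 0.1, while the members' median of -0.05 ranged from -0.10 to -0.01 with 1 library left out. The ratios and the summed FPKM moved by less than 1 SD under the alternatives run for them. For the ratios these were a pseudocount of 1, each library left out and the replicate term, which cannot change them. For the sum they were both changes of scaling, added pseudogene rows and each library left out. In the sum, 1 SD is larger than the difference between the groups.

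Libraries with the same number did not deviate together (r = 0.02, 0.06 and -0.07). This cannot tell whether they were prepared as pairs, and the labels do not say. With the replicate block 0 members were higher and 10 lower, RPL35A losing its call, and 1193 of all genes were higher and 1146 lower. Depth limits RPS10, at 25 to 48 estimated fragments, and RPL3L.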
